A study of Homo sapiens with 6 samples.

Results

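The genes described here are 10 genes of cystine uptake and glutathione turnover, chosen by gene symbol, out of 33496 genes with a value in each library. They are SLC7A11 and SLC3A2, the subunits of the cystine/glutamate antiporter system xc-, then CTH and CBS of transsulfuration, GCLC, GCLM and GSS of glutathione synthesis, and CHAC1, CHAC2 and GGT1 of glutathione breakdown. All 10 symbols were found, each on a single row. The choice was made with earlier results of these data known. The RNA-seq data cover 6 libraries from wild-type ARPE-19, a human retinal pigment epithelium (RPE) cell line. All 6 samples received erastin (5 μM, 24 h), of which 3 had erastin alone (Era) and 3 were pretreated with vitamin K1 (VK1, 10 μM, 1 h) before erastin (Era+VK). Erastin was dissolved in DMSO and VK1 in ethyl alcohol, and whether the Era samples received the alcohol is not stated in the sources used here. No erastin-free library was analysed here. Each comparison is therefore between erastin-treated cells with and without VK1, and none shows the effect of erastin.

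Cells import cystine through system xc-, in which SLC7A11 (xCT) carries the amino acid and SLC3A2 (4F2hc, CD98) anchors it in the plasma membrane, and reduce it to cysteine. Cysteine can also be made from methionine by transsulfuration, in which CBS joins homocysteine with serine and CTH splits the product to release cysteine. Glutamate-cysteine ligase, with the catalytic subunit GCLC and the modifier subunit GCLM, couples cysteine to glutamate, GSS adds glycine to complete glutathione, and glutathione is the reductant with which GPX4 removes lipid peroxides. Erastin blocks system xc-, and loss of cystine and glutathione leads to ferroptosis, an iron-dependent cell death. SLC7A11 and CHAC1 are well-known targets of the stress transcription factor ATF4, and SLC7A11, GCLC and GCLM of the antioxidant factor NRF2 (gene NFE2L2).

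The set of RefSeq promoter windows used here covers 8 of the 10 genes, from 250 bases before to 50 bases after an annotated start (GRCh38.p14, 14 windows). Each window was searched on both strands for TGATGNAA, the core of the C/EBP-ATF response element (CARE) that ATF4 binds with C/EBP partners. Each was also searched for TGACNNNGC, the core of the antioxidant response element (ARE). The matches of CHAC1, SLC3A2 and GCLM are shown with up to 10 bases on each side, 5′ to 3′ along the gene's strand, with the match in capitals. Those of CBS and GGT1, each an ARE on the opposite strand, are not shown. Where the match is on the opposite strand the capitals hold its reverse complement.
CHAC1, CARE, opposite strand, chr15:40953252-40953279 (+): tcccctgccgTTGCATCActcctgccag
SLC3A2, CARE, opposite strand, chr11:62881726-62881748 (+): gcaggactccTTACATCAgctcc
SLC3A2, ARE, gene's strand, chr11:62881652-62881680 (+): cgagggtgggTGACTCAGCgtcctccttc
GCLM, ARE, opposite strand, chr1:93909446-93909474 (-): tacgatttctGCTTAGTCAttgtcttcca
The CHAC1 match begins 209 bases before the annotated start, and the GCLM match 34 bases before it. These starts are those of RefSeq and differ from the outer gene bounds of GENCODE 29 given with the genes, inside or at the edge of which the printed matches lie. The SLC3A2 matches lie in 1 of its 3 windows, the ARE 37 bases before and the CARE 37 bases after the start. A CARE match was present in 3.62% of all 35116 windows of this length and in 2 of the 14 windows, 1 each of CHAC1 and SLC3A2. An ARE match was present in 13.3% of all windows and in 4 of the 14, 1 each of SLC3A2, GCLM, CBS and GGT1. The windows of CTH, GCLC and CHAC2 held neither. SLC7A11 and GSS have no window in the table used. A match is a stretch of letters, and whether any factor binds there was not measured.

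Replicates 2 and 3 of Era+VK stood apart by globin transcripts. The 10 globin genes summed to 234.9 and 228.3 FPKM there, to 0.29 FPKM in Era+VK replicate 1 and to between 0.24 and 0.61 FPKM in Era. Of 20 erythroid markers, globins included, 15 were higher in both of these libraries than in each of the others, and HEMGN and SLC4A1 were at 0.05 FPKM or less throughout. The defining RPE markers RPE65 (0.02 FPKM or less), RLBP1 (0.29 FPKM or less) and TYR (0.17 FPKM or less) were near 0 in all 6 libraries, whereas OTX2, MITF, KRT8 and KRT18 were above 15 FPKM in each, and 7 of 15 RPE markers reached 1 FPKM in every library. Nothing in the labels says that the libraries of a group came from separate cultures, so p-values measure the spread between these libraries, which may be technical.

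VK1-pretreated cells had lower RNA of the cystine carrier, of both transsulfuration enzymes and of the glutathione-degrading enzyme CHAC1, while the RNA of the glutathione-synthesizing enzymes did not pass the test in either direction. CHAC1 was at 27.9% of its Era mean, CTH at 46.9%, SLC7A11 at 58.5% and CBS at 62.8%. Of the 10 genes, 9 had a mean of at least 1 FPKM (fragments scaled to transcript length and to all mapped fragments of the library) and entered a limma fit on log2(FPKM + 1) over 11981 genes. In that fit 4 of the 9 fell (adjusted p under 0.05) and none rose (6 had an unadjusted p under 0.05, GCLC being the 1 of these with a higher mean, where 15.8% of all genes tested had one), against 0.484% of all genes tested called lower and 0.134% called higher, 0.618% in all. Their median log2 fold change was -0.26, and that of all genes tested was 0.03. The genes were chosen with earlier results known, and the paper reports lower CHAC1 with VK1 from these data and also by RT-qPCR. These shares are therefore a description and not a test of the set. CHAC1 reached the mean of at least 1 FPKM through its Era values. A further gene, SLC3A2, was lower in every Era+VK library than in any Era library without passing the threshold, and GCLC was higher in the same sense. Groups without overlap were found in 5 of the 9 genes in the lower direction (7.04% of all genes tested) and in 1 of the 9 in the higher direction (15.1%).

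**Figure D1:**
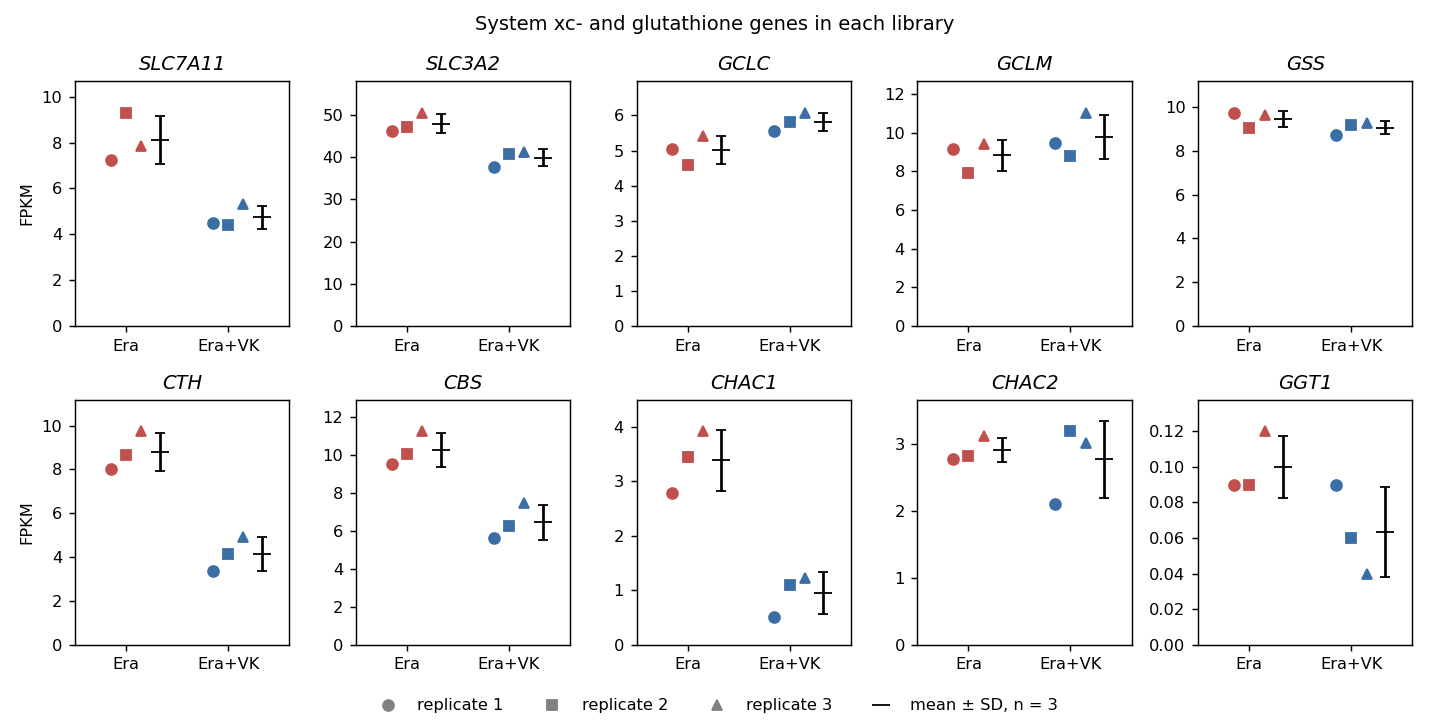
FPKM of the 10 genes in each library (points, shaped by replicate number), with the group mean and SD (n = 3). The Era+VK points lie wholly below the Era points for SLC7A11, SLC3A2, CTH, CBS and CHAC1, wholly above for GCLC, and overlap for the other 4 genes.

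SLC7A11 (ENSG00000151012, GRCh38 chromosome 4, 138164097 to 138242349, minus strand) was at 7.22, 9.29 and 7.84 FPKM in Era replicates 1, 2 and 3. In Era+VK it was at 4.50, 4.41 and 5.33 FPKM. The highest Era+VK library was thus below the lowest Era library, and the groups differed in mean by more than their SDs. The means were 8.12 ± 1.06 (Era) and 4.75 ± 0.507 FPKM (Era+VK, SD, n = 3), which gave a log2 fold change of -0.66 (SE 0.10, 95% interval -0.89 to -0.44, limma adjusted p = 0.0337). Its antisense neighbour SLC7A11-AS1, which overlaps it on the other strand, was at 0.06 FPKM or less in every library. In RNA from whole cultures, fewer cells with a transcript and less of it per cell cannot be told apart.

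SLC3A2 (ENSG00000168003, chromosome 11, 62856102 to 62888875, plus strand), the shared heavy chain of several amino acid transporters, was the most abundant of the 10 genes in both groups. It was at 46.14, 47.14 and 50.47 FPKM in Era, against 37.59, 40.77 and 41.34 FPKM in Era+VK. The groups did not overlap, and the gap between them, from 41.34 to 46.14 FPKM, was wider than either SD. The means were 47.9 ± 2.27 (Era) and 39.9 ± 2.02 FPKM (Era+VK, SD, n = 3), and the log2 fold change of -0.26 (SE 0.05, 95% interval -0.39 to -0.13) did not pass over all genes (limma adjusted p = 0.0923).

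The subunits were also compared within each library, with ratios given in FPKM and their differences tested on log2 of FPKM + 1. The ratio of SLC7A11 to SLC3A2 was 0.156, 0.197 and 0.155 in Era and 0.120, 0.108 and 0.129 in Era+VK. Every Era+VK library had a lower ratio than any Era library. The difference was -0.40 on the log2 scale (SE 0.12) with p = 0.1 in an exact two-sided permutation test and 0.125 adjusted over the 5 ratios tested. With 3 libraries a group this test cannot give a p below 0.1.

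CTH, cystathionine gamma-lyase (ENSG00000116761, chromosome 1, 70411218 to 70439851, plus strand), was at 8.03, 8.65 and 9.73 FPKM in Era. In Era+VK it was at 3.36, 4.13 and 4.90 FPKM. The distance between the nearest libraries of the groups exceeded the spread within either group. The means were 8.80 ± 0.860 (Era) and 4.13 ± 0.770 FPKM (Era+VK, SD, n = 3), which gave a log2 fold change of -0.94 (SE 0.11, 95% interval -1.20 to -0.68, limma adjusted p = 0.0198). In size it was fall number 11 among the 11981 genes tested.

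CBS, cystathionine beta-synthase (ENSG00000160200, chromosome 21, 43053191 to 43076943, minus strand), was at 9.52, 10.06 and 11.25 FPKM in Era, against 5.65, 6.25 and 7.47 FPKM in Era+VK. Its means were 10.3 ± 0.885 (Era) and 6.46 ± 0.927 FPKM (Era+VK, SD, n = 3), which gave a log2 fold change of -0.60 (SE 0.10, 95% interval -0.82 to -0.38, limma adjusted p = 0.0479). The value of this row is uncertain, because the genome assembly holds a near-identical copy, CBSL (ENSG00000274276, chromosome 21, 6444869 to 6468040). In GENCODE 29, 50.3% of the 100-base stretches of CBS transcripts also occur in CBSL transcripts. The files list the copy by its identifier without a symbol, with values above those of CBS. CBSL was at 22.11, 25.41 and 21.44 FPKM in Era, against 12.86, 15.37 and 14.83 FPKM in Era+VK. It fell too, with a log2 fold change of -0.64 (SE 0.08, limma adjusted p = 0.0217), and did not pass when any 1 Era library or Era+VK replicate 3 was left out. With both rows summed, CBS was at 33.3 ± 1.98 FPKM (Era) and 20.8 ± 2.02 FPKM (Era+VK, SD, n = 3), or 62.6% of Era (log2 fold change -0.65, SE 0.08, limma adjusted p = 0.0182).

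Both enzymes of transsulfuration thus fell, and CTH fell further than CBS in each library comparison. The ratio of CTH to CBS was 0.843, 0.860 and 0.865 in Era and 0.595, 0.661 and 0.656 in Era+VK. These groups did not overlap, and the difference of -0.34 on the log2 scale (SE 0.03) had the smallest p the exact permutation test allows (0.1, adjusted 0.125). Against the sum of CBS and CBSL, the ratio of CTH was 0.265 ± 0.0286 in Era and 0.197 ± 0.0199 in Era+VK (SD, n = 3), a difference of -0.29 on the log2 scale.

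None of the 3 genes of glutathione synthesis passed. GCLC (ENSG00000001084, chromosome 6, 53497341 to 53616970, minus strand), the catalytic and rate-limiting subunit, was at 5.04, 4.59 and 5.41 FPKM in Era, against 5.55, 5.82 and 6.07 FPKM in Era+VK. The lowest Era+VK library was just above the highest Era library. Its log2 fold change of 0.18 (SE 0.06, 95% interval 0.03 to 0.33) did not pass over all genes tested (limma adjusted p = 0.238). Its unadjusted p of 0.0227 in limma was of a kind found for 1890 genes, those with an unadjusted p under 0.05.
GCLM (ENSG00000023909, chromosome 1, 93885205 to 93909456, minus strand), the modifier subunit that lowers the catalytic subunit's sensitivity to glutathione feedback, was at 9.15, 7.89 and 9.42 FPKM in Era, against 9.46, 8.78 and 11.01 FPKM in Era+VK. The groups overlapped, and the log2 fold change was 0.13 (95% interval -0.08 to 0.34, limma adjusted p = 0.526), which was 0.046 without Era+VK replicate 3 and 0.059 without Era replicate 2. GSS (ENSG00000100983, chromosome 20, 34928433 to 34956027, minus strand), glutathione synthetase, was at 9.73, 9.03 and 9.63 FPKM in Era, against 8.72, 9.16 and 9.28 FPKM in Era+VK. Its log2 fold change was -0.06 (95% interval -0.17 to 0.06, limma adjusted p = 0.607), an interval that leaves out a fall of the size seen for CTH, CBS or SLC7A11.

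Among these enzymes, the ratio of GCLC to GSS was 0.518, 0.508 and 0.562 in Era and 0.636, 0.635 and 0.654 in Era+VK, higher in each Era+VK library than in any Era library. Its difference was 0.24 on the log2 scale (SE 0.04) with p = 0.1 in the exact permutation test (adjusted 0.125). The ratio of the ligase subunits, GCLC to GCLM, overlapped between the groups, with 0.569 ± 0.0161 in Era and 0.600 ± 0.0570 in Era+VK (SD, n = 3) and p = 0.7 in the exact permutation test (adjusted 0.7). Its difference was 0.05 on the log2 scale, and -0.014 without Era+VK replicate 2. The modifier subunit was listed above the catalytic one in all 6 libraries.

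CHAC1 and CHAC2 both cleave the gamma-glutamyl bond of glutathione in the cytosol, CHAC1 as the stress-induced form and CHAC2 as the constitutive, slower one. CHAC1 (ENSG00000128965, chromosome 15, 40952962 to 40956519, plus strand) was at 2.79, 3.45 and 3.92 FPKM in Era, against 0.50, 1.10 and 1.23 FPKM in Era+VK. The highest Era+VK library was far below the lowest Era library. The means were 3.39 ± 0.568 (Era) and 0.943 ± 0.389 FPKM (Era+VK, SD, n = 3), which gave a log2 fold change of -1.19 (SE 0.16, 95% interval -1.56 to -0.81, limma adjusted p = 0.0263). It was fall number 5 in size among the 11981 genes, on a scale that understates the change of low genes. With a pseudocount of 0.1 in place of 1 its log2 fold change was -1.81 (limma adjusted p = 0.0492). CHAC1 passed the minimum of 1 FPKM through Era, its Era+VK mean being below that minimum. With 1 FPKM required in every library CHAC1 was not tested.

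CHAC2 (ENSG00000143942, chromosome 2, 53767792 to 53775196, plus strand) was at 2.78, 2.83 and 3.12 FPKM in Era, against 2.11, 3.19 and 3.02 FPKM in Era+VK. Replicate 1 of Era+VK was the lowest of the 6 libraries and replicate 2 the highest, so the groups overlapped (log2 fold change -0.06, 95% interval -0.32 to 0.20, limma adjusted p = 0.829), and without replicate 1 of Era+VK the log2 fold change was 0.071. ASB3 overlaps CHAC2 on the other strand at 2.57 to 3.0 FPKM, and whether the libraries kept strand is not given in the sources used here. The ratio of CHAC1 to CHAC2 was 1.0, 1.22 and 1.26 in Era and 0.237, 0.345 and 0.407 in Era+VK. CHAC1 was therefore level with or above CHAC2 in every Era library and below it in every Era+VK library. The difference was -1.12 on log2 of FPKM + 1 (SE 0.10), again with p = 0.1 in the exact permutation test (adjusted 0.125). With a pseudocount of 0.1 in place of 1 this difference was -1.72.

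GGT1 (ENSG00000100031, chromosome 22, 24583750 to 24629005, plus strand), the cell-surface gamma-glutamyltransferase that starts the breakdown of exported glutathione, was too low to be tested. It was listed at 0.09, 0.09 and 0.12 FPKM in Era, against 0.09, 0.06 and 0.04 FPKM in Era+VK. Part of its transcripts (16.2% of their 100-base stretches) also occurs in other genes, GGTLC2, GGT2 and GGT3P among them, so even these values are uncertain. SNRPD3, which overlaps GGT1 on the same strand, was at 19.01 to 22.31 FPKM. The pseudogene GGT8P was at 0.483 ± 0.101 FPKM (Era) and 0.497 ± 0.0757 FPKM (Era+VK, SD, n = 3).

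**Figure D2:**
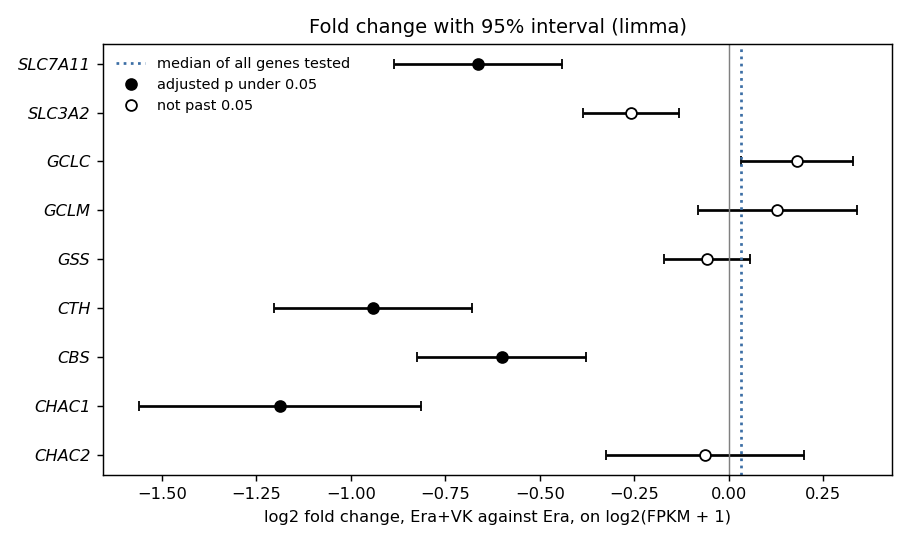
Log2 fold change of Era+VK against Era on log2(FPKM + 1) for the 9 genes tested, with 95% intervals from limma. Filled points are the 4 genes with an adjusted p under 0.05 (SLC7A11, CTH, CBS and CHAC1), and the dotted line is the median of all genes tested, 0.03.

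**Figure D3:**
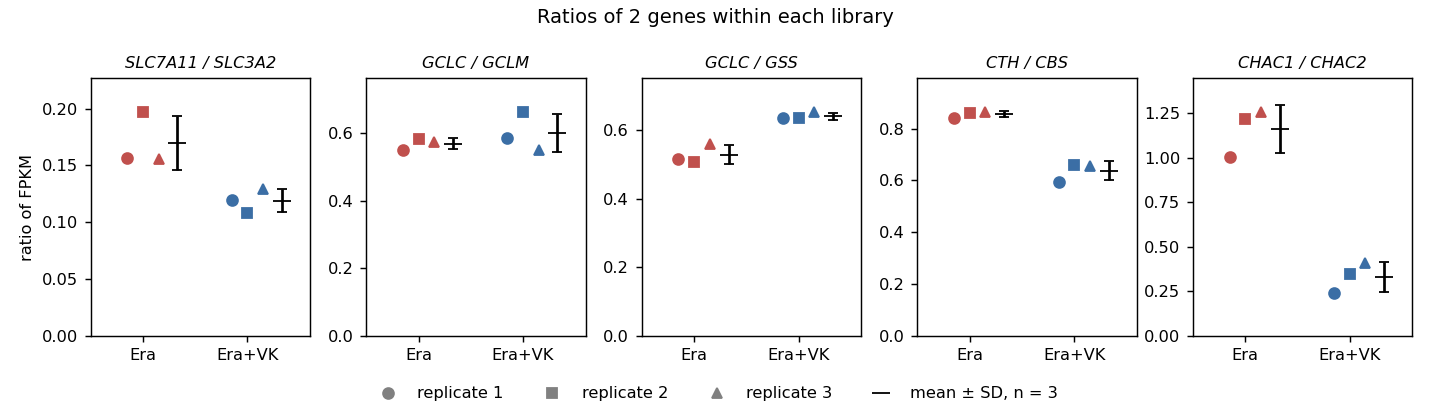
Ratio of the FPKM of 2 genes within each library (points, shaped by replicate number), with the group mean and SD (n = 3). The groups are apart for 4 of the 5 ratios and overlap for GCLC to GCLM.

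The order of levels per length (FPKM) differed between the groups. In Era, SLC3A2 was followed by CBS, GSS, GCLM, CTH and SLC7A11, with means between 10.3 and 8.12 FPKM and ranges that overlap from each gene to the next. Below them came GCLC, CHAC1, CHAC2 and GGT1, of which CHAC1 and CHAC2 overlapped. In Era+VK the order after SLC3A2 was GCLM, GSS, CBS, GCLC, SLC7A11, CTH, CHAC2, CHAC1 and GGT1. There GCLM and GSS overlapped, as did CBS and GCLC, and SLC7A11 and CTH, while each other neighbour was apart. Summed with CBSL, CBS would stand behind SLC3A2 in both groups. GCLC, listed below SLC7A11 in every Era library, was above it in every Era+VK library.

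The size of the falls differed among the 3 Era+VK libraries. Against the mean of Era on log2(FPKM + 1), the differences of CHAC1 were -1.54 in replicate 1, -1.05 in replicate 2 and -0.97 in replicate 3. For CTH these differences were -1.17, -0.93 and -0.73, and for CBS -0.76, -0.63 and -0.41. SLC7A11 did not follow this order, with -0.72, -0.75 and -0.52, and its fall in replicate 1 was of the size of its overall fall. The falls of CHAC1, CTH and CBS were thus larger in replicate 1, which was without the globin transcripts of replicates 2 and 3. With that library alone against Era, log2 fold changes were -1.54 for CHAC1, -1.17 for CTH, -0.76 for CBS and -0.72 for SLC7A11. A lone library has no spread within its group, so no p-value is given. Whether the globin transcripts bear on the size of the falls was not tested.

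The calls depended on single libraries and on the model. When any 1 Era library was left out, the limma adjusted p of the 4 genes was between 0.0720 and 0.193 and none passed, although every log2 fold change of the 9 genes kept its sign. Without Era+VK replicate 1, CTH and CHAC1 still passed, without replicate 2 CTH alone, and without replicate 3 all 4. With no minimum on expression, 31325 genes were tested and none of the 10 passed. Without a trend in the variance, SLC7A11 (limma adjusted p = 0.0505) and CBS (limma adjusted p = 0.0697) did not pass, nor did SLC7A11 with the replicate number as a block (limma adjusted p = 0.0714).

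For each gene that fell, the profile over the 6 libraries was compared with those of all other genes tested, by the root mean square difference of log2(FPKM + 1) after centring each gene on its own mean. Nearest to SLC7A11 were AMIGO2 (difference 0.0773) and MTHFD2 (0.0915). Nearest to CTH were PSAT1 (0.0926) and GARS1 (0.0977), and nearest to CBS were CLDN1 (0.0459) and PYCR1 (0.0627). CHAC1 had no neighbour as close: the nearest were KRT34 (0.110) and CTH itself (0.149). Each profile contains the difference between the groups, so genes near to it had to differ in the same direction by a like amount, and their values are a description. MTHFD2, PSAT1 and GARS1 passed the threshold (log2 fold changes -0.72, -0.95 and -0.79), as did PYCR1 (-0.55) and KRT34 (-1.31). AMIGO2 (-0.65, limma adjusted p = 0.0717) and CLDN1 (-0.56, limma adjusted p = 0.0552) did not pass.

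Other genes of the same pathways were taken from lists. Of 20 tested genes of cysteine and methionine metabolism, none passed in limma (4 had an unadjusted p under 0.05, which 15.8% of all genes tested had), 15 had a higher and 5 a lower mean, and their median log2 fold change was 0.06. Among them CDO1, which oxidizes cysteine, had the largest value (4.21 ± 0.605 FPKM (Era) and 5.85 ± 0.945 FPKM (Era+VK), SD, n = 3, log2 fold change 0.39, limma adjusted p = 0.190). It was followed by AHCYL2 (0.27) and SUOX, sulfite oxidase (0.21). Of 34 tested genes of glutathione use, recycling and breakdown, again none passed (7 with an unadjusted p under 0.05), 23 were higher and 11 lower, with a median of 0.04. The largest values were those of GSTM4, a glutathione S-transferase (0.28), OPLAH, which opens the 5-oxoproline formed in glutathione breakdown (-0.23, limma adjusted p = 0.0839), and GSTO1 (-0.22).

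Of the SLC3A2 partners and other transporters that carry cysteine or cystine, 6 were tested and none passed in limma, with a median of 0.07. An unadjusted p under 0.05 in limma was found for 4 of the 6 and for 15.8% of all genes tested. The neutral amino acid transporter SLC1A4 had the lowest value, with 9.31 ± 0.191 FPKM (Era) and 6.66 ± 0.806 FPKM (Era+VK) (SD, n = 3, log2 fold change -0.43, limma adjusted p = 0.0577). SLC7A5, which pairs with SLC3A2 to import large neutral amino acids, was lower (-0.31, limma adjusted p = 0.154) and SLC7A8, another partner, higher (0.32, limma adjusted p = 0.185), without passing.

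Of 20 tested NRF2 targets other than the 10 genes, none passed, 9 were higher and 11 lower, and the median was -0.01. In limma, 7 of the 20 had an unadjusted p under 0.05, which 15.8% of all genes tested had. ABCC3 (-0.34), OSGIN1 (0.23) and the ferritin light chain FTL (0.19) had the largest values. NFE2L2 itself was at 8.69 ± 0.0961 FPKM (Era) and 9.16 ± 0.150 FPKM (Era+VK) (SD, n = 3, log2 fold change 0.07, limma adjusted p = 0.460). Of 13 transcription regulators, 2 passed and both were lower. ATF4 was at 134.26, 138.59 and 145.67 FPKM in Era, against 88.18, 98.78 and 98.33 FPKM in Era+VK (log2 fold change -0.55, limma adjusted p = 0.0128). CEBPG, a C/EBP partner of ATF4, was at 7.40, 8.61 and 8.14 FPKM and at 4.90, 5.42 and 5.30 FPKM (log2 fold change -0.54, limma adjusted p = 0.0196). TRIB3, an ATF4 target that in turn restrains ATF4, had a log2 fold change of -0.45 (limma adjusted p = 0.0552). Neither ATF4 nor CEBPG passed when any 1 Era library was left out or with no filter, and 1 of these regulators passed without Era+VK replicate 3. ATF4 and CEBPG, like CHAC1 and CTH, were lowest in Era+VK replicate 1.

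**Figure D4:**
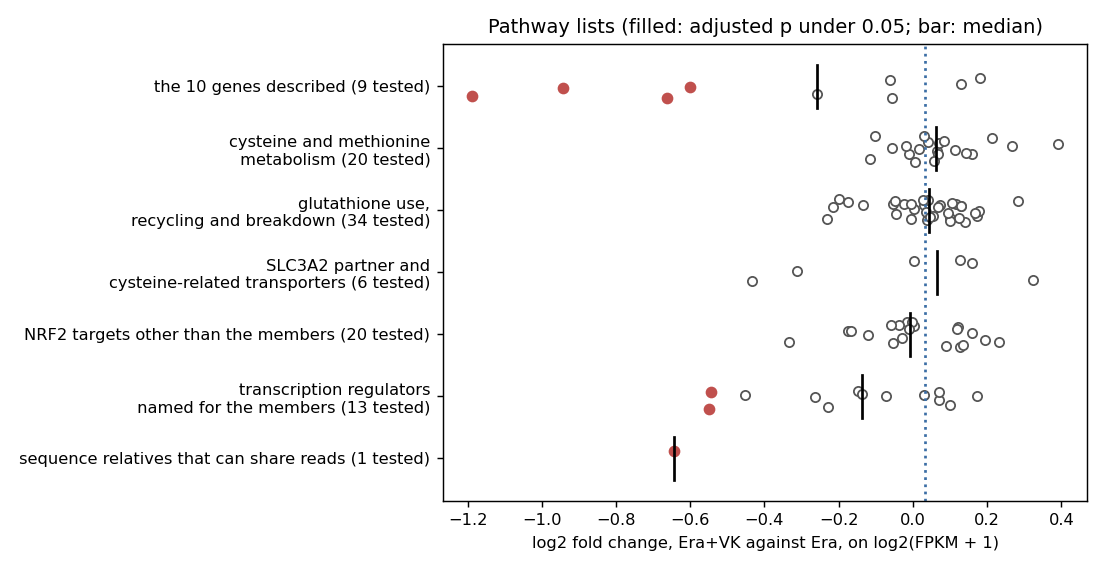
Log2 fold change of Era+VK against Era for each tested gene of the 10 and of the other lists (points, spread vertically for legibility). Filled points have an adjusted p under 0.05 (4 of the 9 tested genes described, 2 of 13 regulators, and CBSL, the 1 sequence relative tested), bars are list medians, and the dotted line is the median of all genes tested, 0.03.

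Across the series, 74 genes passed, 16 higher and 58 lower, and after median-ratio scaling of the libraries, which moved the median of all genes from 0.03 to 0.00, the split was 13 and 105.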

How the data were processed

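Total RNA of 6 ARPE-19 samples, 3 Era and 3 Era+VK, was sequenced by the authors as paired-end libraries on an Illumina NovaSeq instrument. The authors deposited FPKM values with 2 decimals per gene and library. The submitters' processing notes name cutadapt, HISAT2 and StringTie 2.1.6 and the build mm10, a mouse build, whereas every gene identifier is a human Ensembl one, so which build was aligned to stays unclear. Annotation, handling of multi-mapping reads and strand are not given in the sources used here. The titles say ARPE-19 for all samples, although their cell line field counts upwards, and all were taken as ARPE-19. FPKM depend on all mapped fragments of a library. Sequencing depth is unknown from them, and counting error could not be given. Between 24143 and 24601 genes per library were above 0.

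The 11981 genes whose mean over all libraries reached 1 FPKM were fitted on log2(FPKM + 1) in R 4.3.3 with limma 3.58.1, Era+VK against Era, with empirical Bayes, a trend and Benjamini-Hochberg adjustment at 0.05. Ratios within libraries used exact permutation tests on log2 of FPKM + 1. On simulated data of this comparison over 11981 genes, limma recovered 195 of 200 genes changed by 1 on the log2 scale and called 11 unchanged genes. The simulated noise was normal and independent between genes and libraries. Smaller changes, such as those of SLC7A11, CTH and CBS, were not simulated, so the share recovered does not apply to them. Positions and shared sequence are from GENCODE 29 (GRCh38), matched by identifier. The genes named are the 10, their sequence relatives with at least 0.1 FPKM, the nearest 2 profiles of each called gene, ATF4, NFE2L2, and in each list the called genes or, under 3 of these, the 3 largest changes. SLC7A11-AS1, ASB3 and SNRPD3 were added because they overlap a named gene, GGTLC2, GGT2 and GGT3P because they share sequence with GGT1, and marker genes as a check. The genes, lists and tests were chosen with earlier results of these data known. Alternatives were another pseudocount, 2 other filters, 3 other scalings, no trend, the replicate number as a block, libraries left out, and, added after the data were examined, the fold change of CBS summed with CBSL.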

Additional observations from a re-analysis of the deposited data

How the results depend on the processing

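GGT1 could not be tested with the minimum of 1 FPKM, and CHAC1 not with that minimum in every library. Every log2 fold change of SLC7A11, SLC3A2, GCLC, GCLM, GSS, CTH, CBS and CHAC1 kept its sign under all alternatives, and CHAC2 did but for 0.071 without Era+VK replicate 1. In limma, with no filter (31325 genes tested) SLC7A11 (-0.66), CTH (-0.94), CBS (-0.60) and CHAC1 (-1.19) did not pass (adjusted p 0.121 to 0.193), nor did SLC7A11 and CBS without a trend (-0.66 and -0.60, adjusted p 0.0505 and 0.0697). In Era+VK replicate 1 alone against Era, the log2 fold changes of SLC7A11 and CBS were -0.72 and -0.76, without a spread within Era+VK. The number of the 10 genes called lower was 4. It was 0 with no filter, 2 without a trend, and 0 to 4 with 1 library left out. With 1 library left out, log2 fold changes were -0.73 to -0.57 for SLC7A11, -1.05 to -0.83 for CTH, -0.70 to -0.52 for CBS, -1.30 to -1.01 for CHAC1, 0.046 to 0.19 for GCLM, -0.088 to -0.033 for GSS and -0.14 to 0.071 for CHAC2. The ratio of GCLC to GCLM differed by 0.05 on the log2 scale, by -0.014 without Era+VK replicate 2 and by up to 0.11 without another library, and no other ratio changed sign.

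The number of genes called was 74 (16 higher, 58 lower). It was 1 with no filter (0 and 1; 2756 genes had an unadjusted p under 0.05), 122 with 1 FPKM in every library (33 and 89), 112 after quantile normalization (16 and 96), 118 after median-ratio scaling (13 and 105), 44 without a trend (9 and 35) and 35 without Era+VK replicates 2 and 3 (6 and 29). With 1 library left out it was 2 to 70, with 0 to 30 higher and 2 to 47 lower. In each pathway list without a call, 0 or 1 gene passed under every alternative, and 0 to 4 of the 13 regulators did. The cause of these changes was not tested, also not for the fit with no filter, in which more genes were tested.

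The replicate numbers of the titles were tried as a block, although same-numbered libraries did not deviate together (correlations of deviations across genes 0.07, 0.10 and 0.02, and not every library was nearest to its own number). With the replicate block limma called 42 genes (5 higher, 37 lower). SLC7A11 (-0.66) then had an adjusted p of 0.0714, and no other call among the 10 genes changed.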

Other observations

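BEST1, a chloride channel gene used as an RPE marker, varied more between libraries than any of the 10 genes described, without following the groups. It was at 2.65, 0.65 and 56.98 FPKM in Era and at 36.45, 0.60 and 4.80 FPKM in Era+VK. It overlaps FTH1, the ferritin heavy chain gene, on the other strand of chromosome 11 (GRCh38, 61949821 to 61965515 for BEST1 and 61959718 to 61967660 for FTH1), and FTH1 was between 3288.09 and 3752.97 FPKM in these libraries. Whether reads of FTH1 were counted for BEST1 was not tested. The gene was named after its values were seen.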
